A study of Mus musculus with 96 samples.

Results

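Gene expression in the liver of undisturbed control mice was compared with that in the kidney, averaged over the circadian day. The comparison rests on 24 of the 96 libraries of the series, 12 from control liver and 12 from control kidney. Both groups were wild-type (WT) C57BL/6 mice, male and 6 to 8 weeks old by the study's methods, kept in a 12 h light/dark cycle with free food and then held in constant darkness. Samples of each organ were taken at 4 h steps between CT4 and CT24 (CT, circadian time as the titles give it), which gave 6 times with 2 replicates each. No allele or transgene separates the groups, and neither group was treated. Another 24 libraries came from liver and kidney of mice kept awake for 10 h in a rotating drum, and their values are set beside those of the controls where stated. The labels and methods do not say whether the liver and kidney libraries came from the same mice, or how the replicates were separated, so p-values measure the spread between these libraries.

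The liver is built mainly of hepatocytes, which secrete most proteins of the blood plasma, dispose of nitrogen as urea, make bile acids and modify drugs and toxins. The kidney filters plasma in the glomerulus and then recovers or secretes solutes along a chain of specialised tubule segments, from the proximal tubule through the loop of Henle to the distal tubule and collecting duct. Both organs make glucose and both belong to the few epithelia that use the transcription factor HNF4A. Tissue rather than sorted cells was sequenced, so fewer cells of a type and less RNA per cell cannot be told apart.

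The liver libraries held 32.4 to 48.9 M counts and the kidney libraries 32.2 to 58.3 M, so 1 CPM (count per M counts) stood for 32.2 to 58.3 counts before scaling. Levels below are CPM after scaling with the trimmed mean of M values (TMM), and differences are log2 fold changes of liver minus kidney averaged over the 6 CT, with the standard error (SE) from the model. The first principal component held 88.0% of the variance and placed every liver library between -180 and -163 and every kidney library between 163 and 175. Markers of the labelled tissues were present in every library, with Alb, the albumin gene of hepatocytes, at 60170 CPM or more in each liver library, and Lrp2, the megalin gene of the proximal tubule, at 5533 CPM or more in each kidney library. The kidney library of CT20 replicate 1 held 76.7 CPM of Alb against 1.402 to 10.4 CPM in the other 11 kidney libraries. Abcb11, another liver gene, stood at 0.748 CPM there and at 0 to 0.0711 CPM in the others. The highest kidney values of liver genes below can therefore rest on this library, and the cause was not tested. Summed adipose markers ranged from 18.9 to 384 CPM in kidney and from 3.20 to 8.32 CPM in liver, and were highest in both CT24 kidney libraries and in CT4 replicate 1. The kidney library of CT8 replicate 1 had 19.8 CPM of summed adrenal cortex markers, against 0.346 to 0.762 CPM in the others. In 8 of the 12 kidney libraries the time in the title differed from that in the characteristics, and the title was used. Title and treatment field both gave control for all 12. Many genes that are usually abundant stood at or near 0 in both organs. Mean levels were under 1 CPM in both for 11 of 13 mitochondrially encoded genes and 13 of 80 ribosomal protein genes, and 3810 of 21734 protein-coding genes were at 0 in all 24 libraries. A 0 in both organs was therefore not read as a lack of expression, and its cause was not tested.

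Of 22057 genes tested, 3932 (17.8%) were higher in liver and 5398 (24.5%) higher in kidney, at an adjusted p under 0.05 and a difference of over 2-fold in edgeR. The median difference over all genes tested was -0.05. Scaling by library size alone moved that median by -0.52 and changed the share of liver-high genes among the called genes from 42.1% to 26.7%. The 100 most abundant genes took 36.3% ± 0.97 of the counts in liver and 24.02% ± 1.8 in kidney (SD, n = 12). With each of the 6 CT tested singly at the same thresholds, 2409 genes (10.9%) were called higher in liver at all 6. Another 3415 (15.5%) were called higher in kidney at all 6. Genes left out can keep their direction without passing at every CT, where each organ had 2 libraries. For 9287 genes (42.1%) the 12 liver values and the 12 kidney values did not overlap. These shares are the background against which the counts of each gene group below are set. The 25 gene lists in the plot of list members ran from a median of 12.02 for the major urinary proteins to -13.5 for the loop of Henle.

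**Figure D1:**
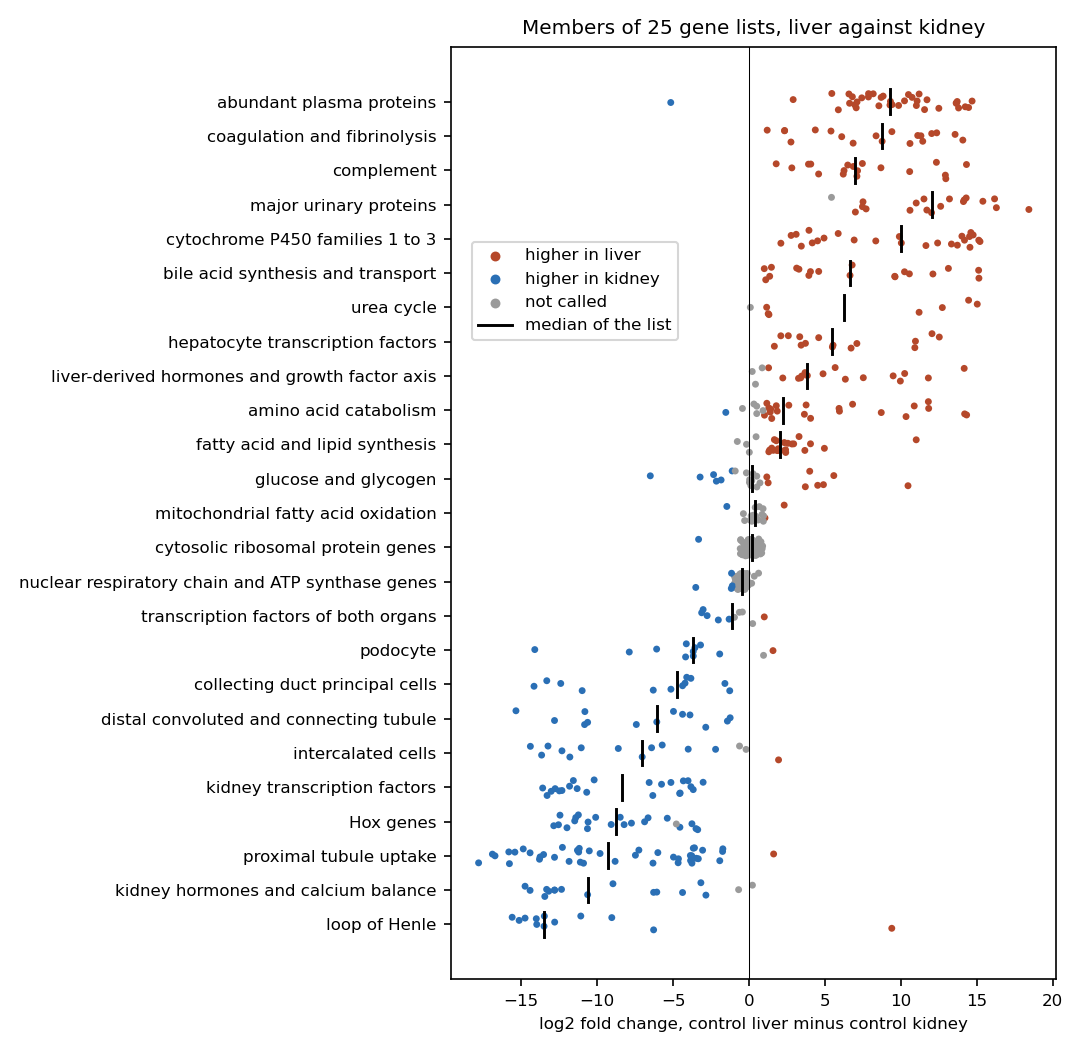
Each point is a member of a named gene list, placed by its log2 fold change, control liver minus control kidney (12 libraries each), on a linear axis. Red points were called higher in liver, blue points higher in kidney, grey points neither, and black bars mark list medians. Secretion, P450 and bile acid lists lie right of 0, nephron segment lists lie left of 0, and ribosomal, respiratory chain and fatty acid oxidation genes cluster around 0.

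Genes of abundant plasma proteins made up 15.2% ± 0.86 of all liver counts and 0.0831% ± 0.012 of kidney counts (SD, n = 12). Of 37 listed genes, 36 were higher in liver and 1 higher in kidney, with a median difference of 9.31 against -0.05 for all genes tested. Alb (chr5:90460897-90476602, plus strand), which encodes the main carrier protein of plasma, ranged from 60170 through a median of 77320 to 97140 CPM in liver and from 1.402 through 3.56 to 76.7 CPM in kidney. The difference was 13.71 (SE 0.53, edgeR adjusted p = 2.245e-14), and 14.4 without the CT20 kidney library that held the highest value. Ahsg, the gene of fetuin-A, lay at 7158 to 10620 CPM in liver and at 0.0231 to 7.40 CPM in kidney, where its median was 0.179 CPM. Its difference was 14.69 (SE 0.51), and lowest at CT20 (11.19). Hpx, whose product binds free haem, lay at 5855 to 10780 CPM in liver and 0.0231 to 6.06 CPM in kidney, with a kidney median of 0.244 CPM. Its difference was 14.24 (SE 0.50), and lowest at CT20 (11.34). Some carriers and lipoproteins were also read in kidney. Gc, the vitamin D binding protein gene, had a median of 7088 CPM in liver and 51.1 CPM in kidney (7.11, SE 0.063). Ttr, which carries thyroid hormone, had medians of 5491 and 52.3 CPM (6.58, SE 0.10). Apob, the structural protein of secreted lipoproteins, had medians of 21660 and 370 CPM (5.88, SE 0.083). The exception, Serpina1c, stood at 0 to 0.0674 CPM in liver on 3 counts in all and at 0.0762 to 0.489 CPM in kidney, a ratio of 32.7 with a 95% counting interval of 11.2 to 158. It belongs to a family of near-identical alpha-1-antitrypsin genes that the mapping filter can strip of reads, so its value is uncertain.

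Coagulation factors and complement are further groups of liver-made plasma proteins. All 19 tested coagulation and fibrinolysis genes were higher in liver (median 8.77), and so were all 18 tested complement genes (median 6.99). The 3 fibrinogen chain genes Fga, Fgb and Fgg had liver medians of 5791, 4998 and 4129 CPM and kidney medians of 18.2, 1.97 and 6.29 CPM. F9, coagulation factor IX, lay at 177 to 328 CPM in liver and at 0 to 0.144 CPM in kidney (12.03, SE 0.11). At the other end, F13b, the carrier subunit of factor XIII, lay at 244 to 393 CPM in liver and 124 to 160 CPM in kidney (1.20, SE 0.048), and its difference fell to 0.67 with library sizes alone. C3, the central complement protein, had medians of 14900 and 98.8 CPM (7.15, SE 0.15). C8b, of the membrane attack complex, lay at 448 to 754 CPM in liver and 0 to 0.518 CPM in kidney.

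The major urinary proteins are pheromone carriers that the liver of male mice secretes for the urine. Of 19 tested Mup genes, 18 were higher in liver and 1, Mup5, was not called (median 12.02). Mup5 lay at 0 to 16.4 CPM in liver and at 0 in kidney, and was called in fits without a separate term for each organ and CT. Mup3 lay at 3512 to 6671 CPM in liver and at 0.0192 to 5.18 CPM in kidney (14.12, SE 0.45). Mup12 lay at 348 to 2498 CPM in liver and at 0 in every kidney library, which made it at least 225300-fold higher in liver when the 3 counts that a total of 0 allows were taken over the 12 kidney libraries. Mup19 ranged from 2.35 to 398 CPM in liver, again with 0 in all kidney libraries (at least 27950-fold). The spread within liver was wide, and Mup18 ran from 13.3 to 1870 CPM. The genes are nearly identical in sequence, so how reads were divided among them is uncertain, and the family as a whole took 0.726% ± 0.17 of liver counts and 0.000112% ± 0.00028 of kidney counts (SD, n = 12).

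Bile acids are made from cholesterol in hepatocytes and pumped into bile. All 19 tested genes of bile acid synthesis and transport were higher in liver (median 6.65), 16 of them at every CT. With library sizes alone 15 were higher in liver. Cyp7a1, the rate-limiting enzyme, lay at 107 to 652 CPM in liver with a median of 256, and at 0 to 0.720 CPM in kidney with a median of 0. Cyp8b1, which sets the ratio of cholic acid, lay at 65.5 to 371 CPM in liver and 0.0237 to 0.576 CPM in kidney (10.56, SE 0.29). The export pump gene Abcb11 had a median of 788 CPM in liver and 0.00958 CPM in kidney. The uptake genes Slco1b2, with medians of 1518 and 0.114 CPM, and Slc10a1, with 419 and 3.94 CPM, showed the same side. Slc10a2, a related bile acid cotransporter that is not among the 19, had medians of 51.8 CPM in liver and 53.84 CPM in kidney. It was not called (-0.18, SE 0.056). Nr1h4, the bile acid receptor FXR, was shared by the organs. It lay at 171 to 291 CPM in liver and 70.8 to 164 CPM in kidney, and its difference of 1.004 (SE 0.072) sat at the threshold and fell below it in 15 of the 24 fits that each left out 1 library.

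The urea cycle turns ammonia into urea. Of 8 tested genes 7 were higher in liver, or 4 with library sizes alone, with medians of 6.25 and 5.74. Cps1, which makes carbamoyl phosphate, lay at 4820 to 9772 CPM in liver and 0 to 5.14 CPM in kidney (14.46, SE 0.49). Otc lay at 295 to 525 CPM in liver and 0 to 0.475 CPM in kidney, and Arg1, which releases urea, at 756 to 1410 CPM and 0 to 1.22 CPM. The middle of the cycle, which in kidney makes arginine from citrulline, was present in both organs. Ass1 lay at 1054 to 2557 CPM in liver and 1360 to 1896 CPM in kidney, so the groups overlapped (0.09, or -0.43 with library sizes alone, SE 0.062, edgeR adjusted p = 0.2091). Asl lay at 257 to 616 CPM in liver and 128 to 196 CPM in kidney (1.31, SE 0.052), a difference that dropped to 0.79 with library sizes alone.

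Amino acid breakdown followed with 22 of 28 tested genes higher in liver, 1 higher in kidney and 5 not called (median 2.24). With library sizes alone 16 were higher in liver and 1 higher in kidney. Tat, the first enzyme of tyrosine breakdown, lay at 494 to 1954 CPM in liver and 0 to 0.748 CPM in kidney (14.20, SE 0.29). Tdo2, which opens the tryptophan ring, lay at 827 to 2124 CPM and 0.379 to 2.56 CPM (10.88, SE 0.23). Bhmt, which remethylates homocysteine with betaine, ran within liver from 517 to 5751 CPM, and lay at 0.555 to 3.60 CPM in kidney. Another step was read in both organs. Hgd, of tyrosine breakdown, was at the threshold with a difference of 1.02 (SE 0.042). Acmsd, a branch enzyme of tryptophan breakdown, was the gene higher in kidney, at 102 to 215 CPM against 34.2 to 73.6 CPM in liver (-1.53, SE 0.094).

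Cytochrome P450 enzymes of families 1 to 3 oxidise drugs, steroids and other foreign compounds. All 25 tested genes were higher in liver, 24 of them at every CT, with a median of 10.0. Cyp3a11 lay at 1761 to 3703 CPM in liver and 0 to 1.78 CPM in kidney (13.72, SE 0.41). Cyp2c29 lay at 644 to 1674 CPM in liver and 0 to 1.04 CPM in kidney, and Cyp1a2 at 983 to 1578 and 0 to 1.22 CPM. Cyp2e1, which oxidises ethanol, was the member with the highest kidney level, at 313 to 551 CPM against 3138 to 6390 CPM in liver (3.44, SE 0.078). Members of the Cyp2c and Cyp2d clusters are close in sequence and their single values are uncertain. A family 4 enzyme named by size of level went the other way, with Cyp4b1 at 20.9 to 30.8 CPM in liver and 1017 to 1615 CPM in kidney (-5.58, SE 0.074).

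**Figure D2:**
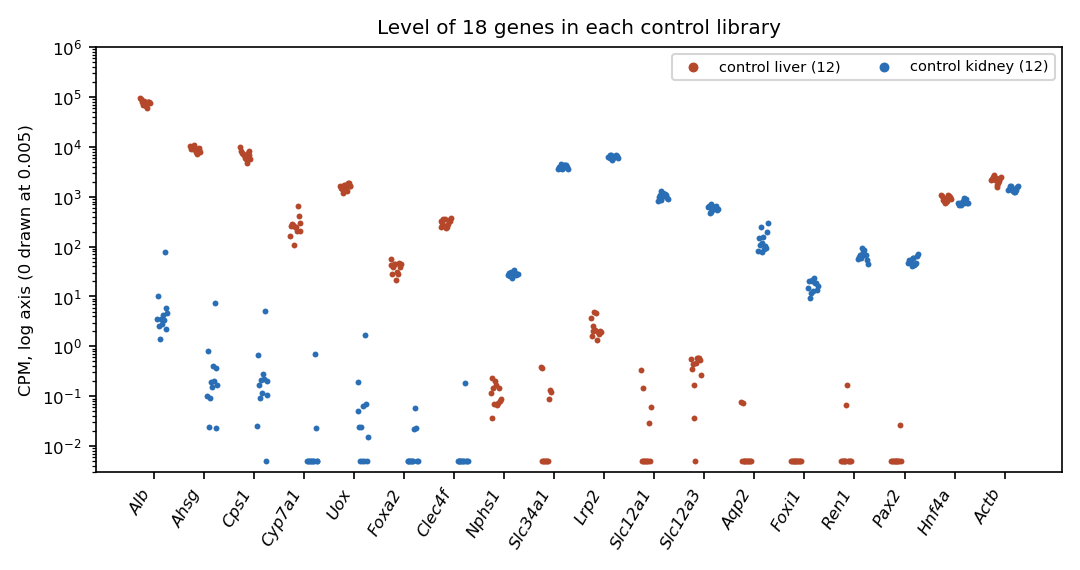
Level of 18 genes in each of the 12 control liver (red) and 12 control kidney (blue) libraries, in CPM on a log axis with values of 0 drawn at 0.005. Alb, Cps1 and the other liver genes lie above all kidney points, Nphs1, Lrp2, Slc12a1 and the other kidney genes above all liver points, while Hnf4a and Actb overlap between the organs.

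Fatty acid and lipid synthesis was higher in liver for 21 of 25 tested genes and not called for 4 (median 2.02). For 15 of the 25 the values did not overlap between the organs, against 42.1% of all genes tested. With library sizes alone 18 were higher in liver and 1 higher in kidney. Scd1, which desaturates fatty acids, lay at 5499 to 12760 CPM in liver and 282 to 2107 CPM in kidney (3.29, SE 0.23). Fasn, fatty acid synthase, lay at 1232 to 3106 CPM in liver with a median of 1795, and at 169 to 2579 CPM in kidney with a median of 545 (1.495, SE 0.24, edgeR adjusted p = 1.593e-05), and its difference was 0.97 with library sizes alone. The 3 highest kidney values of Fasn, 2579, 1668 and 1445 CPM, belonged to the 3 kidney libraries with the highest adipose sums of 384, 371 and 310 CPM. The part of adipose tissue in these values was not tested. All 5 adipose markers were higher in kidney, and Adipoq, the adiponectin gene, lay at 2.11 to 55.7 CPM there and at 0 to 0.398 CPM in liver. Without all 4 CT24 libraries and the CT4 kidney library, an alternative chosen after seeing the data, 21 of 25 lipid genes were again higher in liver and Fasn differed by 1.84. For Mttp, which loads lipid onto lipoproteins, the groups did not overlap, at 400 to 613 CPM in liver and 13.5 to 19.98 CPM in kidney (4.96, SE 0.061). Hmgcs1, of cholesterol synthesis, lay at 347 to 1033 CPM in liver and 524 to 850 CPM in kidney and was not called.

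**Figure D3:**
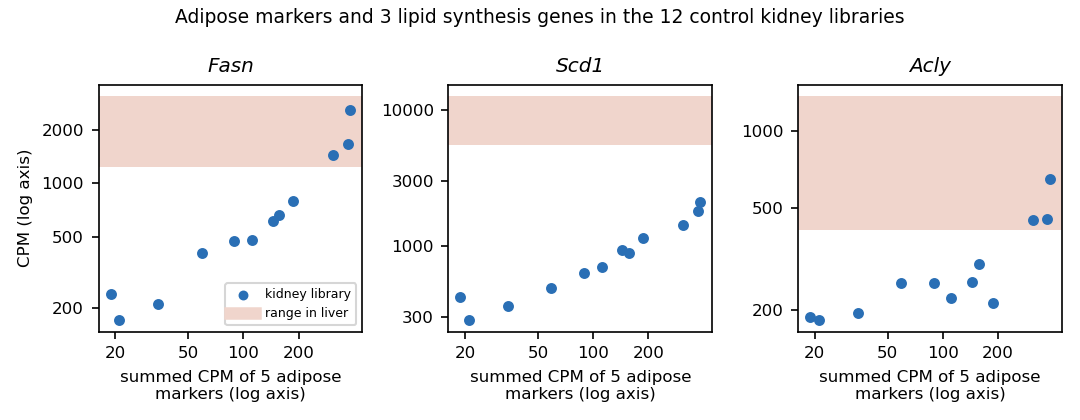
Each point is 1 of the 12 control kidney libraries, placed by the summed CPM of 5 adipose markers (x, log axis) and the CPM of Fasn, Scd1 or Acly (y, log axis), with the range of the 12 control liver libraries shaded. The 3 kidney libraries with adipose sums of 310 to 384 CPM have the highest values of each gene and reach the liver range for Fasn and Acly.

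Ketone bodies are made in the liver and burned in other organs. Of 6 tested genes 3 were higher in liver, 1 higher in kidney and 2 not called, but with library sizes alone 1 was higher in liver and 2 higher in kidney. Oxct1, which allows ketone bodies to be used, lay at 13.97 to 22.6 CPM in liver and 918 to 1179 CPM in kidney (-6.00, SE 0.074).

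Glucose genes stood on both sides, with 8 of 24 tested higher in liver, 6 higher in kidney and 10 not called (median 0.22). With library sizes alone 6 were higher in liver and 7 higher in kidney (median -0.30). Glycogen genes were among those on the liver side. Pygl, liver glycogen phosphorylase, lay at 594 to 950 CPM in liver and 24.6 to 66.5 CPM in kidney (4.52, SE 0.11), and Ppp1r3b, a glycogen-targeting phosphatase subunit, at 212 to 1155 and 2.14 to 75.0 CPM. Genes of glucose production were read in both organs. G6pc, which releases free glucose, lay at 108 to 634 CPM in liver and 216 to 588 CPM in kidney (0.04, or -0.49 with library sizes alone, SE 0.19, edgeR adjusted p = 0.8499). Fbp1 lay at 545 to 1046 CPM in liver and 628 to 796 CPM in kidney and was not called. Pck1, which commits oxaloacetate to glucose, lay at 388 to 2408 CPM in liver and 1480 to 3308 CPM in kidney (-1.11, SE 0.097), and was called at 3 of the 6 CT. On the kidney side stood the general glycolytic forms, with Hk1 at 10.1 to 18.3 CPM in liver and 88.3 to 140 CPM in kidney (-3.22, SE 0.073) and Aldoa at 85.0 to 142 and 493 to 660 CPM (-2.33, SE 0.065). The isoform pair of pyruvate kinase was divided, with Pklr at 253 to 756 CPM in liver and 33.3 to 43.0 CPM in kidney, and Pkm at 47.9 to 77.5 and 175 to 294 CPM.

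Genes of liver-derived hormones and the growth factor axis, receptors included, were higher in liver for 16 of 19 tested (median 3.84). None was higher in kidney, and with library sizes alone 15 were higher in liver. Igf1, the growth factor that answers growth hormone, lay at 719 to 1574 CPM in liver and 32.2 to 50.5 CPM in kidney (4.87, SE 0.086). Hamp, the iron hormone hepcidin, lay at 53.7 to 410 CPM in liver and 0 to 0.187 CPM in kidney. Serpina6, which carries glucocorticoids, lay at 110 to 315 CPM and 0 to 0.532 CPM (11.81, SE 0.205). Gcgr, the glucagon receptor, lay at 158 to 212 CPM in liver and 13.9 to 21.8 CPM in kidney (3.47, SE 0.041). The growth hormone receptor Ghr lay at 748 to 1125 CPM in liver and 566 to 757 CPM in kidney and was not called.

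Turning to the kidney, the glomerular filter is held by podocytes, whose interlocking feet are joined by slit diaphragm proteins. Of 12 tested podocyte genes, 10 were higher in kidney, 1 higher in liver and 1 was not called (median -3.67). Nphs1, nephrin of the slit diaphragm, lay at 23.9 to 33.4 CPM in kidney and 0.0367 to 0.228 CPM in liver (-7.89, SE 0.12).

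The proximal tubule reclaims most of the filtered solutes, and its 42 listed uptake genes took 3.97% ± 0.26 of kidney counts and 0.0938% ± 0.0047 of liver counts (SD, n = 12). Of the 42, 41 were higher in kidney and 1 higher in liver (median -9.32), and all held at every CT. Protein uptake was carried by Lrp2 (chr2:69424340-69586065), megalin, at 5533 to 6881 CPM in kidney with a median of 6372, and at 1.32 to 4.95 CPM in liver (-11.30, SE 0.23). Its partner Cubn, cubilin, lay at 1078 to 1351 CPM in kidney and 0 to 0.380 CPM in liver. Kap (chr6:133849851-133853762), an androgen-regulated gene of the proximal tubule, lay at 5328 to 9293 CPM in kidney with a median of 7180 (-17.81, SE 0.41). In liver it stood at 0 in most libraries and reached 1.03 CPM at CT4 and 0.587 CPM at CT8, each in replicate 1. Phosphate is recovered by Slc34a1, at 3586 to 4449 CPM in kidney and 0 to 0.380 CPM in liver. Glucose is recovered by the cotransporter SGLT2, whose gene Slc5a2 lay at 361 to 472 CPM in kidney and 1.58 to 3.33 CPM in liver (-7.48, SE 0.074). Urate is recovered through Slc22a12, at 887 to 1212 CPM in kidney and 0.163 to 0.723 CPM in liver, and organic anions are taken up by Slc22a6, at 494 to 717 and 0 to 0.0760 CPM. Bicarbonate leaves the cell through Slc4a4, which was also present in liver, at 1725 to 2385 CPM in kidney and 103 to 276 CPM in liver (-3.34, SE 0.058). Slc6a13, a transporter of GABA and taurine that hepatocytes also use, was the gene higher in liver, at 200 to 309 CPM against 70.4 to 94.0 CPM (1.62, SE 0.039). The plasma peroxidase gene Gpx3, which the proximal tubule secretes, had the second largest difference in level per length among kidney genes, at 13310 to 16600 CPM in kidney and 5.15 to 10.1 CPM in liver (-10.84, SE 0.14).

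Promoters were examined because genes of the proximal tubule are known to depend on HNF4A. The RefSeq table for GRCm38.p6, with 300 bases per promoter (250 before and 50 after the start), matched 35 of the 41 proximal tubule genes that were higher in kidney and 56 of the 73 plasma, coagulation and complement genes that were higher in liver. The HNF4 letters CAAAGTCCA, searched on both strands, occurred in 2 of the 35 (5.71%), those of Slc3a1 and Pdzk1, in 0 of the 56 and in 0.555% of all 27025 genes with a promoter. The C/EBP letters TTGCGCAA occurred in 0 of the 56 and in 0.207% of all genes. The search also covered the ESRRA letters TCAAGGTCA and 56 matched nuclear genes of the respiratory chain and ATP synthase. ESRRA letters occurred in 2 of these respiratory genes (3.57%), in 0 genes of the other 2 sets and in 0.466% of all genes. The HNF4 and C/EBP letters occurred in 0 of the respiratory genes. These are matches of letters, not measured binding. Slc3a1, part of the cystine transporter, lay at 214 to 285 CPM in kidney and 19.7 to 45.5 CPM in liver (-3.06, SE 0.065). Pdzk1, a scaffold of brush border transporters, lay at 495 to 647 CPM in kidney and 36.1 to 48.6 CPM in liver (-3.76, SE 0.049). Their windows on GRCm38.p6, chr17:85028097-85028396 and chr3:96829815-96830114, both on the plus strand, are shown with the match in capitals. It begins 39 bases before the start in Slc3a1 and 14 bases after it in Pdzk1.
Slc3a1: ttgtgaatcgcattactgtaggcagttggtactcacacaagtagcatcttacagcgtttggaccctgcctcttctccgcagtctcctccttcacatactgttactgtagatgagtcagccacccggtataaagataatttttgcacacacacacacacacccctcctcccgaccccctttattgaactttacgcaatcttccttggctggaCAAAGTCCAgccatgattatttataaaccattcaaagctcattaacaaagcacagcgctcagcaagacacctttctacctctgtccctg
Pdzk1: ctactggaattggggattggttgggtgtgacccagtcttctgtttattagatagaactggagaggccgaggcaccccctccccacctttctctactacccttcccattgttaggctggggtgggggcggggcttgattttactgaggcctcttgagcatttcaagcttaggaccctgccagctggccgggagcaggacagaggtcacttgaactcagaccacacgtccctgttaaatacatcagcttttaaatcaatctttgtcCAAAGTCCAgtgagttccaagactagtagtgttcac

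The thick ascending limb of the loop of Henle separates salt from water, and 11 of its 12 listed genes were higher in kidney and 1 higher in liver. The median was -13.5, or -12.7 with the genes absent from all liver libraries set at their bounds. Umod, the gene of uromodulin, which the thick ascending limb releases into urine, lay at 2000 to 2811 CPM in kidney and 0 to 0.418 CPM in liver (-14.75, SE 0.20). Slc12a1, the target of loop diuretics, lay at 830 to 1271 CPM in kidney and 0 to 0.342 CPM in liver (-15.60, SE 0.23). Claudins, which set the ion selectivity of tight junctions, divided. Cldn16 lay at 4.96 to 9.70 CPM in kidney and at 0 in all liver libraries (at least 858-fold), while Cldn14 was the gene higher in liver, at 10.5 to 22.5 CPM against 0 to 0.102 CPM (9.40, SE 0.14).

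All 13 genes of the distal convoluted and connecting tubule were higher in kidney (median -6.08), and all 12 genes of collecting duct principal cells (median -4.76). Slc12a3, the target of thiazides, lay at 481 to 704 CPM in kidney and 0 to 0.594 CPM in liver (-10.81, SE 0.15). Calb1, which buffers calcium in transit through the cell, lay at 317 to 452 and 3.26 to 7.65 CPM (-6.08, SE 0.076). Wnk1, a kinase of the salt-sensing pathway that many tissues use, lay at 565 to 728 CPM in kidney and 255 to 309 CPM in liver (-1.24, SE 0.041). In principal cells, Aqp2, the water channel under vasopressin control, lay at 78.3 to 301 CPM in kidney with a median of 114, and at 0 to 0.0760 CPM in liver. Its 3 highest kidney values were 301 CPM at CT24 replicate 2, 247 CPM at CT8 replicate 2 and 200 CPM at CT24 replicate 1. Both CT24 libraries also had the highest urothelium sums, 53.8 and 39.0 CPM against 4.85 to 24 CPM in the others, and the part of urothelium in these values was not tested. Subunits of the sodium channel ENaC differed in size of difference, with Scnn1b at 28.8 to 39.0 CPM in kidney and 0 in all liver libraries (at least 4009-fold), and Scnn1a at 80.4 to 116 CPM in kidney and 33.0 to 50.3 CPM in liver (-1.27, SE 0.062).

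Intercalated cells balance acid and base. Of 15 listed genes, 12 were higher in kidney, 1 higher in liver and 2 not called (median -7.04). Rhcg, an ammonia channel, lay at 60 to 79.4 CPM in kidney and at 0 in every liver library (at least 8457-fold). The master regulator Foxi1 lay at 9.47 to 23.0 CPM in kidney, again with 0 in every liver library (at least 2055-fold). Rhbg, the related ammonia channel, lay at 7.97 to 10.1 CPM in kidney and 3.98 to 7.70 CPM in liver and was not called. Avpr1a, a vasopressin receptor that hepatocytes also carry, was higher in liver, at 28.9 to 102 CPM against 8.55 to 23.8 CPM (1.94, SE 0.082). Atp1b1, the beta subunit gene of the sodium pump that drives transport in all these segments, lay at 1708 to 2562 CPM in kidney and 55.4 to 106 CPM in liver (-4.79, SE 0.063).

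Hormones of the kidney and the genes of calcium balance were higher in kidney for 15 of 17 tested and higher in liver for none (median -10.6). Ren1, renin, lay at 44.8 to 92.1 CPM in kidney and 0 to 0.165 CPM in liver (-13.45, SE 0.17). Kl, the klotho co-receptor of FGF23, lay at 849 to 1150 CPM in kidney and 0.0361 to 0.727 CPM in liver (-12.80, SE 0.15). Vdr, the vitamin D receptor, lay at 161 to 219 and 0.108 to 0.773 CPM (-8.96, SE 0.11). Cyp24a1, which inactivates vitamin D, varied from 10.3 to 90.4 CPM within kidney and stood at 0 in every liver library (at least 4588-fold). Epo, erythropoietin, lay at 0.541 to 1.09 CPM in kidney and 0.163 to 0.892 CPM in liver (-0.69, SE 0.19) and was not called.

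Transcription factors set the identity of each organ's cells. All 15 tested factors of hepatocytes were higher in liver (median 5.49), and all 22 kidney factors were higher in kidney (median -8.39, or -7.72 with genes absent from all liver libraries at their bounds). Factors known from both organs were listed apart, with earlier results of these data known, so these counts do not test the direction. Foxa2, a pioneer factor of gut-derived organs, lay at 21.1 to 57.1 CPM in liver and 0 to 0.0576 CPM in kidney. Onecut2 lay at 166 to 277 CPM in liver and 0 to 0.158 CPM in kidney (12.05, SE 0.16), and Cebpa at 589 to 805 and 44.5 to 84.1 CPM (3.34, SE 0.070). In the kidney, Pax2, which directs kidney development, lay at 41.3 to 70.4 CPM, with 0 to 0.0262 CPM in liver. Pax8 lay at 55.8 to 92.1 CPM in kidney and 0 to 0.103 CPM in liver (-11.57, SE 0.16), and Emx1 at 19.1 to 28.5 CPM with 0 in every liver library (at least 2727-fold). Factors known from both organs gave 1 gene higher in liver, 5 higher in kidney and 4 not called. The 1 was Nr1h4, at the threshold as described above, and with library sizes alone none was higher in liver and 7 were higher in kidney. Hnf4a lay at 757 to 1086 CPM in liver and 674 to 931 CPM in kidney (0.24, SE 0.049), and its difference was -0.28 with library sizes alone. Its relative Hnf4g was higher in kidney, at 8.29 to 15.3 CPM against 0.832 to 2.53 CPM (-3.12, SE 0.13).

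Hox genes record position along the body axis in tissues of mesodermal origin, to which the kidney belongs. Of 39 genes 22 could be tested, and 21 of these were higher in kidney, with 1, Hoxa13, not called (median -8.78, or -8.62 at the bounds). Hoxa13 lay at 0 to 0.457 CPM in kidney and at 0 in liver, and was called in fits without a separate term for each organ and CT. Hoxd8 lay at 88.9 to 118 CPM in kidney and 0 to 0.289 CPM in liver (-12.45, SE 0.19). Hoxa10 lay at 41.0 to 46.1 CPM and 0 to 0.217 CPM (-12.86, SE 0.18). Hoxb3, of the front part of its cluster, was read in both organs, at 27.3 to 43.3 CPM in kidney and 1.55 to 3.90 CPM in liver (-3.76, SE 0.10). A further 17 Hox genes did not pass the filter on low counts. Summed over all 39 genes, levels were 3.59 to 7.68 CPM in liver and 380 to 423 CPM in kidney. Genes could thus pass the filter through kidney alone, which favours the kidney side among those tested. Without the filter 22 of 27 were higher in kidney and 0 higher in liver.

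Several pathways cross both organs, and their steps were compared within a list of 30 genes, of which 14 were higher in liver, 14 higher in kidney and 2 not called. For creatine, Gatm, which makes the precursor guanidinoacetate, lay at 624 to 1153 CPM in kidney and 20.5 to 32.3 CPM in liver (-5.02, SE 0.082), and Gamt, which methylates it, lay at 104 to 145 CPM in liver and 14.4 to 23.1 CPM in kidney (2.75, SE 0.051). For angiotensin, the precursor gene Agt lay at 372 to 581 CPM in liver and 34.0 to 54.7 CPM in kidney (3.40, SE 0.059), while Ace lay at 209 to 307 CPM in kidney and 3.42 to 9.74 CPM in liver (-5.52, SE 0.085). For vitamin D, the first hydroxylase Cyp2r1 lay at 11.7 to 15.1 CPM in liver and 1.01 to 2.64 CPM in kidney, and the activating Cyp27b1 at 0.912 to 3.17 and 4.45 to 18.6 CPM (-2.84, SE 0.20). For urate, Uox, which breaks it down in the mouse, lay at 1201 to 1882 CPM in liver and 0 to 1.71 CPM in kidney. For glutamine, the liver form Gls2 lay at 172 to 374 CPM in liver and 0.384 to 0.978 CPM in kidney.

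Related genes were then set in 16 ordered pairs, most with a form known from the liver first, though Hnf4a and Atp6v1b2, also placed first, are used more widely. In 8 of the 16 pairs the first was higher in liver and the second higher in kidney, among them Arg1 and Arg2, Hsd11b1 and Hsd11b2, Hao1 and Hao2, and Aqp9 and Aqp3. Hsd11b1, which regenerates active glucocorticoid, lay at 338 to 565 CPM in liver and 64.6 to 92.7 CPM in kidney (2.51, SE 0.056). Hsd11b2, which inactivates it and so shields the aldosterone receptor, lay at 109 to 133 CPM in kidney and 3.91 to 7.58 CPM in liver (-4.38, SE 0.072). In 4 pairs only one member was called, in 3 both were higher in kidney, and in 1 neither was called. Slc27a5, which activates bile acids, lay at 745 to 1306 CPM in liver and 0.0239 to 0.993 CPM in kidney, whereas Slc27a2, which activates very long chain fatty acids, lay at 1004 to 1643 and 1970 to 2994 CPM and was not called (-0.93, or -1.45, past the threshold, with library sizes alone). Of 10 tested aquaporins, 2 were higher in liver, 7 higher in kidney and 1 was not called. Aqp9, which takes up glycerol, lay at 334 to 665 CPM in liver and 0 to 0.763 CPM in kidney, Aqp8 at 41.0 to 310 and 0.0462 to 1.13 CPM, and Aqp1 at 152 to 204 CPM in liver and 552 to 752 CPM in kidney (-1.93, SE 0.045).

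**Figure D4:**
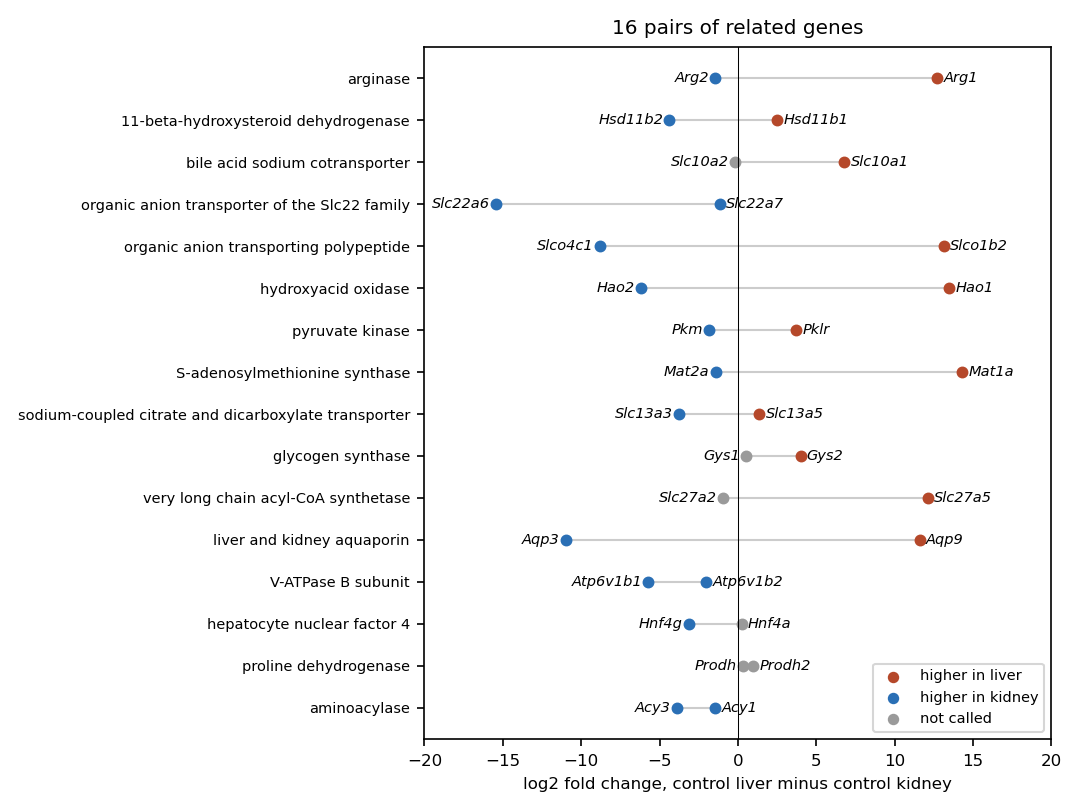
Log2 fold change, control liver minus control kidney (12 libraries each), for 16 pairs of related genes joined by lines, on a linear axis. Red points were called higher in liver, blue points higher in kidney and grey points neither. In 8 pairs the members lie on opposite sides of 0, both called.

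By difference in mean CPM per kb of exon, the 10 leading protein-coding genes in liver were Alb, Hpx, Mup3, Ttr, Ahsg, Gc, Apoa1, C3, Gm17662 and Hp, nearly all of them genes of secreted plasma or urinary proteins. Alb stood at 32750 CPM per kb in liver and 4.31 in kidney, and Hpx, next in order, at 5400 and 0.508. Gm17662 has only 24 bases of annotated exon and a mean of 63.1 CPM in liver, so its place in this order rests on that length. It lies opposite the complement gene C8a and was read at 5.21% of its level in liver and 4.68% in kidney, and whether its reads come from C8a was not tested. In kidney the leading genes included Kap, Gpx3, Umod, Slc34a1, Atp1b1, Klk1, S100g, Akr1c21 and Cyp4b1, with Kap at 10160 CPM per kb and Gpx3 at 8174. Klk1, tissue kallikrein, lay at 617 to 873 CPM in kidney and 0.0262 to 0.293 CPM in liver (-12.35, SE 0.13). S100g, the small calcium carrier of the distal nephron, lay at 276 to 362 CPM and 0.228 to 1.27 CPM (-9.23, SE 0.12). Among genes without a count in over 6 of the 12 libraries of the other organ, the liver also gave the carboxylesterase genes Ces3b, at 378 to 659 CPM with at most 0.288 CPM in kidney, and Ces2a, at 242 to 438 CPM with at most 0.187 CPM. The kidney gave the brush border protease Mep1a, at 1031 to 1532 CPM with at most 0.152 CPM in liver, and Cdh16, the kidney cadherin, at 728 to 924 CPM with at most 0.253 CPM. It also gave the transporters Slc7a13 and Slc5a12 and Guca2b, the gene of a gut and kidney peptide, at 92.6 to 116 CPM, which had 2 counts over the 12 liver libraries.

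Few genes of the machinery that every cell uses passed the threshold. Of 72 tested ribosomal protein genes 71 were not called and 1, Rpl3l, was higher in kidney (median 0.20, or -0.32 with 5 genes higher in kidney when library sizes alone were used). Of 71 tested nuclear genes of the respiratory chain and ATP synthase, 67 were not called and 4 were higher in kidney, with a median of -0.43 that moved to -0.95, with 32 genes higher in kidney, when library sizes alone were used. Cox7a1, a tissue-specific subunit of cytochrome oxidase, was among them, at 6.88 to 17.1 CPM in kidney and 0.325 to 1.28 CPM in liver (-3.51, SE 0.14). Mitochondrial fatty acid oxidation gave 2 of 18 genes higher in liver, 1 higher in kidney and 15 not called (median 0.42, or -0.096 with library sizes alone). Acaa2, the thiolase of the last step, lay at 604 to 988 CPM in liver and 150 to 196 CPM in kidney (2.31, SE 0.040). Acadm, medium-chain acyl-CoA dehydrogenase, lay at 158 to 245 CPM in liver and 496 to 719 CPM in kidney (-1.46, SE 0.060). Of 12 housekeeping genes 11 were not called.

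Marker genes of cells other than the parenchyma also differed between the organs. All 10 tested macrophage genes were higher in liver (median 4.99), where Kupffer cells live in the sinusoids. Clec4f, a marker of Kupffer cells in the mouse, lay at 234 to 367 CPM in liver and 0 to 0.187 CPM in kidney, and Csf1r, the receptor on all macrophages, at 278 to 457 and 56.3 to 74.3 CPM (2.43, SE 0.080). Endothelial genes gave 6 of 13 higher in liver, 2 higher in kidney and 5 not called, and with library sizes alone 5 were higher in each organ. Those of liver sinusoids were on the liver side, with Clec4g at 42.2 to 73.7 CPM in liver and 0 to 0.0715 CPM in kidney and Stab2 at 148 to 207 and 8.06 to 15.0 CPM (4.01, SE 0.051). Emcn, which is strong in glomerular and other capillaries, lay at 47.0 to 58.2 CPM in kidney and 3.55 to 5.48 CPM in liver (-3.58, SE 0.074). Of 12 lymphocyte genes 9 were higher in liver, or 6 with library sizes alone, none higher in kidney and 3 not called. Ms4a1, the B cell marker CD20, lay at 1.99 to 4.11 CPM in liver and 0.197 to 0.813 CPM in kidney. Among stellate cell and fibroblast genes 5 of 11 were higher in each organ and 1 was not called. Reln lay at 182 to 312 CPM in liver and 5.26 to 9.50 CPM in kidney (4.97, SE 0.11), and Pdgfra at 13.5 to 20.7 and 59.1 to 109 CPM (-2.16, SE 0.089). Genes of bile duct cells were higher in kidney for 4 of 6, higher in liver for 1 and not called for 1. Such epithelial markers are also known from kidney tubules, and which cells gave these values was not tested. Krt7, a keratin of simple epithelia, lay at 51.3 to 84.5 CPM in kidney and 0.619 to 1.82 CPM in liver (-5.84, SE 0.078).

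Of all 22057 genes tested, 9330 were called on average over the 6 CT. The difference between the organs varied over the 6 CT for 1325 genes (6.01%) at an adjusted p under 0.05 in edgeR. Of these, 555 were also called on average. With 1 library left out at a time the number ran from 431, without CT16 kidney replicate 2, to 1762, without CT8 liver replicate 2. These values take the kidney times from the titles, and the other field would place 8 kidney libraries at other times. Tef, a clock output factor, peaked at CT16 in both organs at 332 CPM in liver and 371 CPM in kidney, but fell at CT8 to 42.0 CPM in liver and 147 CPM in kidney, so the difference ran from -1.80 to -0.16. Pck1 was high in liver at CT4, CT16 and CT20, with means of 2301, 2367 and 1934 CPM, and low at CT8, CT12 and CT24, with means of 658, 586 and 509 CPM, while the kidney means stayed at 1739 CPM or more. Asl, of the urea cycle, lay between 271 CPM at CT16 and 553 CPM at CT4 in liver, while kidney stayed between 143 and 191 CPM. Ndrg1 peaked at CT8 in liver and at CT4 in kidney, with a difference between -7.46 and -5.57. Slc9a3, the proximal tubule sodium-proton exchanger, differed by -6.00 on average and was higher in kidney at every CT. Gys2, liver glycogen synthase, rose from 131 CPM at CT8 to 294 CPM at CT20 in liver and stayed within 10.6 to 14.2 CPM in kidney libraries.

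**Figure D5:**
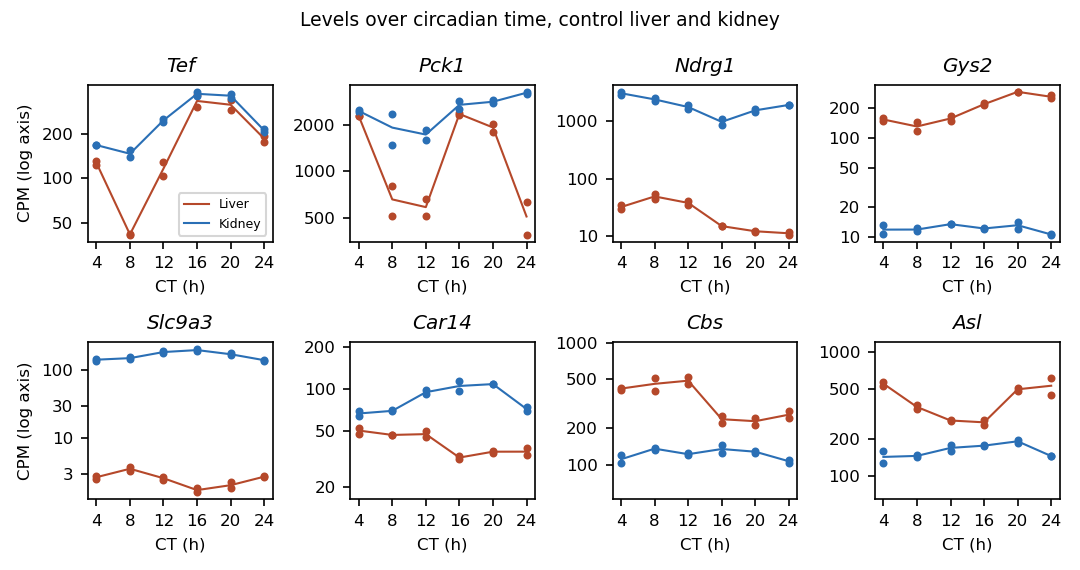
Levels of 8 genes over circadian time in control liver (red) and control kidney (blue), in CPM on log axes. Points are the 2 replicates of each organ and time, and lines join their means. Tef differs most at CT8, Pck1 dips in liver at CT8, CT12 and CT24, and Gys2, Ndrg1 and Slc9a3 stay apart at all 6 CT.

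In the 24 libraries titled as sleep-deprived the same contrast, fitted on its own, called 3700 genes higher in liver and 6000 higher in kidney. Of the genes called in controls, 9101 had a value there, 9072 with the same sign and 8462 also called. Alb differed by 14.42 there and by 13.71 in controls, Lrp2 by -11.12 and -11.30, and Fasn by 1.16 and 1.495. For 10 of the 12 kidney libraries so titled the treatment field reads control, so these values rest on the titles. Whether sleep loss changed the difference between the organs was not tested.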

How the data were processed

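Total RNA of whole liver and kidney was sequenced as rRNA-depleted, strand-specific libraries on a HiSeq X. The authors trimmed the reads with Trim Galore, aligned them to GRCm38 with HISAT2, kept alignments of mapping quality 60 with Samtools and deposited the featureCounts counts per gene, unnormalized. That filter drops reads shared by near-identical genes, so single values of such families are uncertain.

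Here, gene symbols, exon lengths and coordinates came from GENCODE M21, and promoters from RefSeq GRCm38.p6. Of 54833 features, 22057 passed edgeR's filterByExpr over the 12 groups of organ and CT. Counts were scaled with TMM and fitted with edgeR 4.0.16 (quasi-likelihood, R 4.3.3), with liver minus kidney averaged over the 6 CT. Genes were called at a Benjamini-Hochberg adjusted p under 0.05 and over 2-fold. Variation over CT was tested with a 5-df interaction. DESeq2 1.42.0, other scalings, filters and designs were alternatives. A total of 0 was bounded with 3 counts over 12 libraries, and intervals are exact at 95% for counting error only. The fits were tested on simulated counts. The lists, pairs and rules for named genes (the 10 largest level differences and the 10 most abundant genes near 0 in the other organ per direction, 3 lncRNAs per direction, and the genes with the smallest interaction p) were chosen with earlier results of these data known. Some genes and pairs that these rules name are not reported here.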

Additional observations from a re-analysis of the deposited data

Results flagged for a closer look

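For 19 genes the difference between liver and kidney changed over circadian time, by the interaction test of edgeR with Benjamini-Hochberg adjustment over all genes tested. They are the 10 protein-coding genes with the smallest p and the 10 of the gene lists with the smallest p, with Tef in both. The 2 replicates per organ and time limit the test, and no explanation was weighed.

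The adjusted p was 0.0001853 for Tef, Car14, Tubb2a and Mreg, 0.0002608 for Ndrg1, 0.0003653 for Loxl4, 0.0004274 for Tjp3 and Slc16a12, and 0.0005692 for Gde1, Wnt5b and Slc9a3. It was 0.001156 for Ddc and Asl, 0.001337 for Gys2, 0.001453 for Esrrb, 0.00146 for Cbs, 0.001608 for Atp5g3, 0.001731 for Pck1 and 0.003499 for Slc13a1.

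For Mreg the log2 fold change stayed on the liver side, from 2.52 to 4.00, and Tubb2a also stayed there, from 0.56 to 2.54. Car14, a membrane carbonic anhydrase, was higher in kidney at every time by the point estimate, from -1.70 to -0.41. Loxl4 ran from -0.48 to 2.36 and Slc16a12, a creatine transporter, from -0.96 to 0.40. Of the point estimates below 0, none passed for Loxl4 (edgeR adjusted p = 0.0921 at the lowest), and Slc16a12 was past 2-fold at no CT in either direction. Wnt5b ran from 0.03 to 2.30, Tjp3 from 0.55 to 1.89 and Gde1 from -1.46 to -0.37.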

How the results depend on the processing

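The count of 9330 called genes stayed within 1.5 times under other scalings, DESeq2, no filter, other designs and glmTreat (8130 to 11147) and with 1 library left out (9646 to 9847). It was 5887 with a filter of 1 CPM in 12 libraries, which tests fewer genes, and 17980 without the 2-fold threshold. The count called at all 6 CT was 8939 without that threshold, against 5824. Library sizes alone moved the median difference by -0.52 and turned 6 small, uncalled ones: Ass1 -0.43, Hnf4a -0.28, Hmgcs1 -0.50, G6pc -0.49, Fbp1 -0.26 and Ghr -0.095. Hmgcs1 was also -0.0039 without a filter and -0.041 to 0.060 with 1 library left out, and G6pc -0.19 to 0.15. Of 181 genes named, 154 kept direction and side of the threshold in all 34 settings. Among the others, Mup5 (9.14 and 9.09) and Hoxa13 (-5.71 and -5.68) were called with additive CT and with no CT term. Genes close to 2-fold also changed, with Pck1 at -0.82, Ddc at 0.87 and Wnt5b at 0.97 without the CT24 libraries and CT4 kidney replicate 1, chosen after seeing the data. The cause was not tested.

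The number of genes whose difference varied over CT was the least stable, at 3744 with DESeq2, 3953 without a filter and 431 to 1762 with 1 library left out, against 1325. It moved by over 1.5 times in liver without CT16 replicate 1 (769) or 2 (770), and in kidney without CT4 replicate 1 (698), CT12 replicate 1 (722) or 2 (738), CT16 replicate 2 (431), CT20 replicate 1 (775) or 2 (883), and CT24 replicate 1 (677) or 2 (568).

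Another fit took the same-numbered liver and kidney libraries of each CT as a block. With it 9328 genes were called on average, 5636 at all 6 CT and 1273 for variation over CT, and G6pc was -0.033. Deviations of same-numbered liver and kidney libraries correlated at 0.028 to 0.11 over genes at each CT. These values had no reference from organs known to share a mouse, so whether the numbers pair the samples was not tested. Levels near the floor of 3 counts, 0.00824 CPM in liver and 0.00528 CPM in kidney, could not be resolved.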

Other observations

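The lncRNA genes with the highest levels were taken by the same rule of size. Of 2745 tested lncRNA genes, 531 were higher in liver and 820 higher in kidney. Over all 22057 genes tested, 3932 (17.8%) were higher in liver and 5398 (24.5%) higher in kidney, so more kidney calls were not particular to lncRNAs. In liver, Gm20512 lay at 905 to 1583 CPM against 26.7 to 38.8 CPM in kidney (5.24, SE 0.094), B430119L08Rik at 762 to 1386 against 0.185 to 1.43 CPM (11.25, SE 0.17), and Gm30097 at 387 to 1025 against 2.71 to 6.96 CPM (7.07, SE 0.088). In kidney, Malat1 lay at 5405 to 8336 CPM against 2114 to 4789 CPM in liver (-1.21, SE 0.067), Gm44588 at 125 to 185 against 0 to 0.0760 CPM, and Gm15350 at 100 to 160 against 1.35 to 7.16 CPM (-5.56, SE 0.089).

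Several of these loci lie opposite an abundant gene. Gm30097 stood at 13.6% of Fgg in liver, Gm44588 at 6.23% of Umod in kidney, and Gm15350 at 7.52% of Atp11a in liver and 6.69% in kidney. The protein-coding Pfn3 stood at 6.97% of the opposite Slc34a1 in kidney. B430119L08Rik (chr12:103895897-103898784, plus strand) lies within Serpina1c, the plasma protein gene that was at 0 to 0.0674 CPM in liver. Whether reads passed between strands or genes was not tested.

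Of 18 core clock genes with a peak of at least 1 CPM in both organs, 10 peaked at the same CT in both organs and 16 within 4 h of each other. Nr1d1 peaked at CT16 in both, at 78.95 CPM in liver and 70.02 CPM in kidney, and Arntl at CT8 in liver, at 56.69 CPM, and at CT4 in kidney, at 40.38 CPM. Each peak rests on the mean of 2 libraries at the CT in the titles, and the time field would place 8 kidney libraries at other times. How the CT in the titles relates to lights-on was not tested, so these peaks give no phase against the light cycle.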
